A study of Rattus norvegicus with 6 samples.

Results

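Desmosomes are junctions that fasten the intermediate filaments of a cell to those of its neighbour. The set described here holds 9 of their components: Dsp, Jup, Pkp2, Pkp4, Dsg2, Dsc2, Perp, Ppl and Evpl, found by gene symbol among the 29884 genes of a count table from rat trigeminal ganglia. Dsp was chosen by its counts, which were lower in treated than in untreated ganglia, so that difference is given below as a description with no p-value, and the other members were taken as its partners in the junction. All 9 symbols were in the table, and 7 passed the filter on low counts.

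RNA-seq had been made from ganglia of wild-type rats in 6 samples, 3 per group. The injury samples came from rats with chronic constriction of the infraorbital nerve (CCI-ION), and the conduit samples came from rats with the same constriction followed by the SFM-Gel-light @NGC treatment, which the series title describes as a light-driven nerve conduit. All 6 samples therefore carry the constriction, and an uninjured ganglion is not analysed here. The sources used here give neither strain nor age, and do not say whether a sample pools animals. The labels place injury at days 14, 15 and 16 and conduit at days 17, 18 and 19, so, if these days hold, time and group cannot be told apart. The day rises by 1 from each sample to the next in the order listed, and whether it is the true day of collection is uncertain. Batch 1 held injury samples 1 and 2 only, batch 3 held conduit samples 2 and 3 only, and batch 2 paired the remaining sample of each group.

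In a desmosome, cadherins of the desmoglein (Dsg) and desmocollin (Dsc) families cross the gap between cells. Plakoglobin (Jup) and the plakophilins (Pkp) bind the cadherin tails, and desmoplakin (Dsp) ties this plaque to keratin, desmin or vimentin filaments. Desmosomes are best known from epithelia and heart muscle, and in the coverings of nervous tissue they occur in the arachnoid barrier layer. Sensory neurons and Schwann cells rely mainly on other junctions, among them adherens junctions, in which plakoglobin also takes part.

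The stretch of 250 bases before the transcription start is shown for Dsp, whose transcript differed between the groups, for Jup, the most abundant member, and for Pkp4, which differed by batch. The sequences are RefSeq's for the rat build GRCr8, a later build than that of the counts. Each is written 5′ to 3′ on the strand of the gene, with capitals marking 2 short motifs on either strand: GGGCGG (reverse CCGCCC), the GC box bound by Sp1-type factors, and CACCTG (reverse CAGGTG), the E-box bound by the Snail and ZEB repressors of epithelial genes. In the Pkp4 stretch 2 of the GC boxes overlap.
Dsp, chr17:26877122-26877371, minus strand: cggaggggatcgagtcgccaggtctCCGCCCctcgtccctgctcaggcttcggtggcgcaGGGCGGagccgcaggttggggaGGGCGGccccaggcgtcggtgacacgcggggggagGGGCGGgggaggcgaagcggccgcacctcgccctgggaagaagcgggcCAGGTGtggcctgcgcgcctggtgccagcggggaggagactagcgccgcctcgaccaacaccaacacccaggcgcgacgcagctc
Jup, chr10:85827430-85827679, minus strand: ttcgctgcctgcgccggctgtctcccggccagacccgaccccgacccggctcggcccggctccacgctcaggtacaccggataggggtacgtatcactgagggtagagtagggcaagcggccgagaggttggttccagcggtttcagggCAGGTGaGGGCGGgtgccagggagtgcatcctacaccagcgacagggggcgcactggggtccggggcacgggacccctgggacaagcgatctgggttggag
Pkp4, chr3:64040745-64040994, plus strand: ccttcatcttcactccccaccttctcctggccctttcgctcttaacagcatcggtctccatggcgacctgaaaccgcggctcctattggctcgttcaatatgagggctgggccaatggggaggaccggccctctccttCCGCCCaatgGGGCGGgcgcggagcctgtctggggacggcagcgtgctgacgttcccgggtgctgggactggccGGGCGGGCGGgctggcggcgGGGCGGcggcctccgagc

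RefSeq's promoter table held 7 of the 9 members. The Dsp stretch held 4 GC boxes and 1 E-box, the Jup stretch 1 of each, and the Pkp4 stretch 5 GC boxes and no E-box. Of the 7 members, 7 held a GC box and 6 an E-box, against 30.5% and 15.9% of all 33469 stretches of the same length. Their G and C content lay between 64.4% and 75.2%, above the median of 51.2% over all stretches, and its part in these counts was not tested. The GATA motif AGATAA (reverse TTATCT), used by the erythroid GATA factors, was in 0 of the 7, against 10.3% of all stretches, and the AP-1 motif TGAGTCA (reverse TGACTCA) was in 1, that of Perp, against 4.05%. The CCAAT box (reverse ATTGG) was likewise in 1, that of Pkp4, against 34.0%. These are matches of letters, not shown binding sites.

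The libraries held from 40172473 to 41903629 counts. Levels are given as CPM, the count relative to the library total after TMM scaling, when a gene is compared between libraries, and as FPKM, which also divides by gene length, when genes are compared with each other. Each fold change is the log2 of conduit over injury, with its standard error (SE). Genes that mark the ganglion were high in every library (Tubb3, a neuronal tubulin, at 1804 to 2718 CPM). Several libraries stood apart. Injury sample 1 held pituitary transcripts, with growth hormone (Gh1) at 4869 CPM against 0.452 to 15.3 in the others. Conduit sample 2 held muscle transcripts, with skeletal actin (Acta1) at 2198 CPM against 5.16 to 77.3. The batch 2 libraries held more central glia transcripts, with Mobp at 484 and 511 CPM there against 25.3 to 260 in the others.

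Desmosome genes in these ganglia spanned a wide range of levels per length. Jup led at a mean of 51.8 FPKM over the 6 libraries. Perp, a small membrane protein of desmosomes and a p53 target, followed at 12.5 FPKM, and Pkp4, a plakophilin relative also found at adherens junctions, at 11.2 FPKM. Perp and Pkp4 did not differ beyond their spread, since Perp ranged from 10.8 to 16.8 FPKM and Pkp4 from 5.79 to 19.3. All other members were near or below 1 FPKM: Pkp2 had a mean of 0.800, Ppl 0.437, Evpl 0.268, Dsc2 0.0940 and Dsg2 0.0347 FPKM. Dsp lay among these, and its place depended on the group: at 0.840 ± 0.0225 FPKM (SD, n = 3) in injury it was level with Pkp2, and at 0.0887 ± 0.0327 FPKM (SD, n = 3) in conduit it was below Evpl. Jup made up 59.2% to 72.2% of the summed FPKM of the 9 members in a library. The transcript of the linker that anchors the plaque was thus scarce beside that of plakoglobin, which also serves adherens junctions. Dsp FPKM was at most 1.80% of Jup FPKM in the injury libraries and 0.0871% to 0.237% in the conduit libraries.

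**Figure D1:**
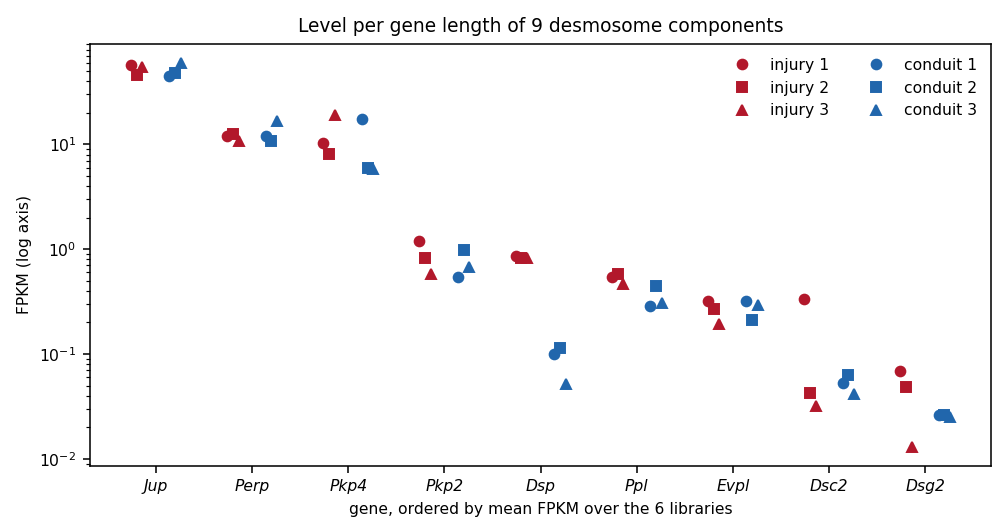
FPKM on a log axis for the 9 members, ordered by their mean over the 6 libraries, with a red mark for each injury library and a blue mark for each conduit library. The Dsp marks split by group, the Pkp4 marks by batch (injury 3 and conduit 1 at the top), and the Dsc2 mark of injury 1 stands alone at 0.332 FPKM.

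Desmoplakin was about 9-fold lower in conduit than in injury ganglia. Its counts were 341, 321 and 322 in injury samples 1, 2 and 3 and 39, 45 and 21 in conduit samples 1, 2 and 3. Scaled, that is 8.48, 7.59 and 7.76 CPM in injury and 0.941, 1.13 and 0.527 CPM in conduit. The injury libraries lay close together and far above every conduit library. The highest injury library was 1.12 times the lowest, whereas the conduit libraries, with few reads each, spread over 2.14 times. The means were 7.94 ± 0.470 CPM in injury and 0.866 ± 0.308 CPM in conduit (SD, n = 3 each), a log2 fold change of -3.19 (SE 0.313), or 9.14 times more in injury. Within batch 2, where 1 library of each group can be set side by side, the difference was -2.98. It was -3.27 without batch 2 and -3.37 without the pituitary-bearing injury sample 1 and the muscle-bearing conduit sample 2. In these bulk samples, fewer cells of a type and less RNA per cell cannot be told apart.

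As background for these counts, edgeR's quasi-likelihood test with Benjamini-Hochberg adjustment called 0.00607% of the 16478 tested genes lower in conduit (1 gene, not a member) and 0% higher. It called 0 of the 7 tested members. An unadjusted p under 0.05 was found for 1 member and for 5.35% of all tested genes. DESeq2 called 1 member and 1.23% of the genes it gave an adjusted p, and limma-voom called 0 members and 0.00607% of genes. The member counted by the unadjusted p and by DESeq2 was Dsp in both cases, the gene picked for this contrast, so nothing is read from these counts. Of the 7 members 4 had a negative and 3 a positive fold change, with a median of -0.19, while 49.5% of all tested genes were negative, with a median of 0.00. Leaving Dsp aside, no tested member had a fold change beyond 0.57 in size.

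**Figure D2:**
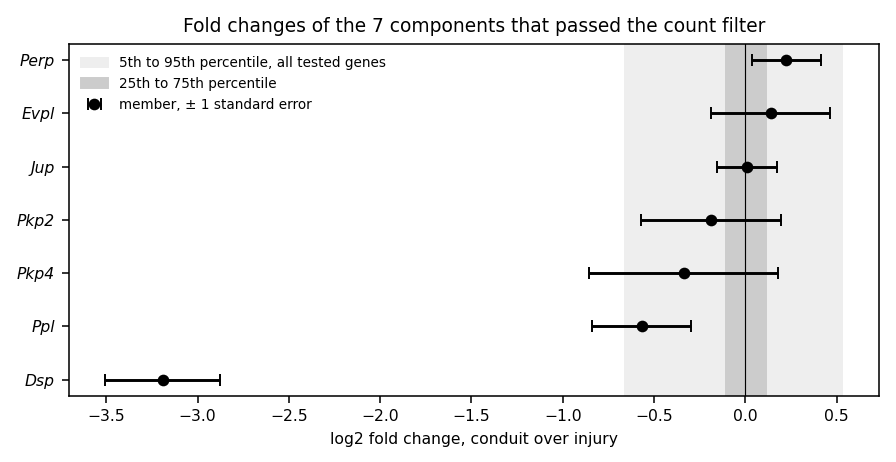
Log2 fold change, conduit over injury, of the 7 members that passed the filter, with bars of 1 standard error. The grey bands span the middle of all tested genes. Dsp lies at -3.19, outside the bands, and the other 6 lie between -0.57 and 0.22.

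The plaque proteins that bind the cadherins did not follow Dsp. Jup stood at 208, 158 and 193 CPM in injury samples 1 to 3 and at 158, 178 and 226 CPM in conduit samples 1 to 3. The groups overlapped fully, and the highest and next highest libraries, conduit sample 3 and injury sample 1, belonged to different groups. The means were 186 ± 25.7 CPM in injury and 187 ± 35.1 CPM in conduit (SD, n = 3 each), a log2 fold change of 0.01 (SE 0.163). It was -0.29 within batch 2 and between -0.15 and 0.12 with any 1 library left out.

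The order of the libraries by Jup was nearly that of the neuronal genes Tubb3 and Snap25, but not that of other neuronal genes. Injury sample 2 was among the lowest libraries for Jup. For the neuronal filament genes Nefl (5769 CPM), Nefm (7388 CPM) and Ina (64.0 CPM) it was the next highest after conduit sample 3. Tubb3 stood at 2540, 2120 and 2283 CPM in injury and 1804, 2133 and 2718 CPM in conduit, so its highest 3 libraries were those of Jup in the same order. Snap25, a protein of transmitter release, was likewise highest in conduit sample 3, at 1486 CPM, and lowest in conduit sample 1, at 989 CPM. The summed level of the 10 sensory neuron markers ranged from 9829 to 11143 CPM in injury and from 8670 to 12740 CPM in conduit. Of the 12854 genes compared, 280 had a Pearson r over 0.95 with Jup in log2 CPM over the 6 libraries. The 5 that followed it most closely were Ppp2r2b, Psma6, Sugt1, Ercc1 and Nap1l5, with r from 0.990 to 0.995. This look at Jup was added after its values were seen. The part of neuronal RNA in the Jup level was not tested.

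Pkp4 separated the libraries by batch rather than by group. It was at 62.1, 44.9 and 111 CPM in injury samples 1 to 3 and at 101, 35.9 and 35.7 CPM in conduit samples 1 to 3. Both batch 2 libraries, injury sample 3 and conduit sample 1, were above all the others, and the groups overlapped. The log2 fold change was -0.34 (SE 0.518), with means of 72.6 ± 34.2 CPM in injury and 57.4 ± 37.4 CPM in conduit (SD, n = 3 each). It was -0.14 within batch 2 and -0.58 (SE 0.193) without batch 2, where injury samples 1 and 2 lay above conduit samples 2 and 3. It was -1.02 without conduit sample 1 and 0.10 without injury sample 3, so its size depended on both libraries and its sign on injury sample 3.

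Genes of central glia, which wrap axons on the brain side of the nerve root, had the same high libraries as Pkp4. Mog, a surface protein of central myelin, was at 17.4, 9.96 and 33.4 CPM in injury and 34.3, 1.48 and 2.76 CPM in conduit. Mobp, an oligodendrocyte myelin protein, was at 260, 112 and 511 CPM in injury and 484, 25.3 and 54.5 CPM in conduit. In each of these genes the 2 batch 2 libraries were the highest and injury sample 1 the next. Over all 10 central glia markers, a list added after values were seen, the summed level ranged from 2160 to 4655 CPM in injury and from 1762 to 5441 CPM in conduit, with none of the 10 at the floor in every library. Ppp1r14a, Unc5b, Gpr37 and Zdhhc20 were among the genes most like Pkp4 over the 6 libraries (Pearson r from 0.981 to 0.984), also looked up after the values were seen. The part of central glia in the Pkp4 level was not tested.

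Pkp2, the plakophilin of heart muscle and simple epithelia, was scarce. It had 139, 95 and 68 counts in injury and 63, 115 and 81 counts in conduit, or 3.46, 2.25 and 1.64 CPM and 1.52, 2.89 and 2.03 CPM. The groups overlapped, with injury sample 1 highest and conduit sample 1 lowest. The log2 fold change was -0.19 (SE 0.385), and it was -0.69 against injury sample 1 alone. Leaving out injury sample 1 gave 0.15, and leaving out conduit sample 1 gave 0.01.

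The desmosomal cadherins were almost absent from the libraries, and both failed the filter on low counts, so no fold change was fitted. Dsg2 had 16, 11 and 3 counts in injury and 6 in each conduit library, 48 in all. Dsc2 had 63, 8 and 6 counts in injury and 10, 12 and 8 in conduit, 107 in all. The Dsc2 reads of injury sample 1 stood apart, at 1.57 CPM against 0.145 to 0.301 CPM in the other libraries, while those other libraries overlapped between groups. For comparison, Evpl, the tested member with the fewest counts, had 420 in all.

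Injury sample 1, the high library for Dsc2, also held epithelial and pituitary transcripts. Epcam, an adhesion protein of epithelia, was at 16.0 CPM there and at 0.497 CPM or less in the others. Krt18, a keratin of simple epithelia, was at 3.03 CPM there and at 0.0251 to 0.265 CPM in the others. Pkp3, an epithelial plakophilin, had 30 counts there and at most 4 elsewhere. Not every keratin was high in injury sample 1. Krt8 was at 10.3 CPM in injury sample 1 and at 6.22 to 11.3 CPM in the others. Krt19 was at 1.07 CPM in injury sample 1 and at 0.337 to 3.26 CPM in the others. Krt5, Krt7, Krt14, Krt15 and Krt17 were, like Krt18, highest in injury sample 1. The 14 epithelial markers in the table summed to 47.1 CPM in injury sample 1, against 15.1 and 20.6 CPM in the other injury libraries and 13.9 to 20.3 CPM in conduit. The 8 pituitary markers, a list added after values were seen, summed to 6131 CPM in injury sample 1, 17.0 and 2.19 CPM in the other injury libraries and 1.43 to 5.15 CPM in conduit, and Prl, the prolactin gene, had 0 counts in conduit sample 1. Dsp was nearly the same in injury sample 1 as in the other injury libraries, and its fold change was -3.13 without that sample. The part of pituitary or epithelial cells in the Dsc2 level was not tested.

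Perp was steady except in conduit sample 3. It was at 22.7, 22.5 and 19.8 CPM in injury and 22.2, 20.7 and 33.0 CPM in conduit, with conduit sample 3 above the other 5 libraries. The groups overlapped. The log2 fold change was 0.22 (SE 0.189), with means of 21.7 ± 1.63 CPM and 25.3 ± 6.73 CPM (SD, n = 3 each), and it was -0.01 without conduit sample 3 and 0.16 within batch 2.

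Periplakin (Ppl) and envoplakin (Evpl) are relatives of desmoplakin that join filaments to the cell edge in stratified epithelia. Ppl was at 3.48, 3.45 and 2.87 CPM in injury and 1.76, 2.84 and 2.01 CPM in conduit, from 73 to 146 counts per library. Every conduit library lay below every injury library, though conduit sample 2 and injury sample 3 nearly met. Groups were separated in this direction for 4.22% of all tested genes and for 2 of the 7 tested members, Dsp and Ppl. Dsp was picked for its lower counts in conduit, so nothing is read from this count. The Ppl log2 fold change was -0.57 (SE 0.270), far smaller than that of Dsp, and it was between -0.79 and -0.43 with any 1 library left out. Evpl was at 2.06, 1.63 and 1.20 CPM in injury and 2.03, 1.38 and 1.98 CPM in conduit. Its groups overlapped, with a log2 fold change of 0.14 (SE 0.327), which was 0.73 within batch 2, -0.14 without batch 2, -0.04 without injury sample 3 and -0.20 without injury samples 2 and 3. Per length, Dsp exceeded Ppl by 1.44 to 1.77 times in injury and was 0.171 to 0.349 times Ppl in conduit.

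The other desmosome genes had few counts, apart from Pkp1. Of 8 further genes, only Pkp1 and Cdsn passed the filter. Neither edgeR nor DESeq2 called them (0 of 2), and 0 had an unadjusted edgeR p under 0.05. Cdsn, or corneodesmosin, had 14, 4 and 13 counts in injury and 19, 14 and 21 in conduit. Pkp1, a plakophilin of the epidermis, was at 14.9 ± 2.18 CPM in injury and 16.5 ± 1.65 CPM in conduit (SD, n = 3 each) and, at a mean of 3.35 FPKM, more abundant per length than Pkp2. Dsg1 reached at most 4 counts in a library, Dsg4 3, Dsc1 6 and Dsg3 14. Dsc3 had 1 count in injury sample 1 and 0 elsewhere, where a count of 0 allows up to 3 counts, or 0.0710 to 0.0753 CPM, counting error only.

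Among the 13 tested filament genes the groups were separated for 2, both higher in conduit and neither called by edgeR. Vimentin (Vim), the filament of Schwann, satellite and connective tissue cells, was at 1080 ± 35.8 CPM in injury and 1300.2 ± 17.8 CPM in conduit (SD, n = 3 each), with a log2 fold change of 0.27 (SE 0.0765; edgeR adjusted p = 0.716). Nes, a filament of immature and glial cells, was at 149 ± 7.39 and 179 ± 18.2 CPM (log2 fold change 0.26, SE 0.0999; edgeR adjusted p = 0.897). For Vim and Nes the lowest conduit library lay above the highest injury library, as it did for 5.41% of tested genes. Krt8, the partner of Krt18, was at 8.86 ± 2.29 and 10.2 ± 1.04 CPM. Krt18 itself had a log2 fold change as large as that of Dsp, -3.27 (SE 1.42; edgeR adjusted p = 0.960), but its 122 counts in injury sample 1 stood against 10 and 5 in the other injury libraries and 11, 2 and 1 in conduit, and the groups overlapped. Krt15, a keratin of basal epithelial cells that failed the filter, had 43, 3 and 1 counts in injury and 0 in each conduit library, which allows up to 3 counts. Des, the muscle filament, was at 185 CPM in conduit sample 2, the library with muscle transcripts, and at 4.44 to 27.7 CPM elsewhere. Among the 13 tested filament genes the median was 0.09, edgeR called 0 and DESeq2 called 1, and 2 were higher with an unadjusted edgeR p under 0.05, against 2.99% of all tested genes. Of 6 further plakins and linkers 0 were called by edgeR or DESeq2 and 0 had an unadjusted edgeR p under 0.05, with fold changes from -0.07 to 0.09. Among them Plec, or plectin, was at 399 ± 7.47 and 422 ± 38.2 CPM, and Dst, or dystonin, at 971 ± 156 and 980 ± 68.5 CPM.

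Adherens junction genes, which share plakoglobin with desmosomes, were abundant and shifted little. Cdh1, or E-cadherin, was at 298 ± 19.7 CPM in injury and 335 ± 25.3 CPM in conduit (SD, n = 3 each; log2 fold change 0.17, SE 0.0960; edgeR adjusted p = 0.99981). Cdh2, or N-cadherin, was at 111 ± 7.17 and 114 ± 7.01 CPM, and Ctnnb1, or beta-catenin, the closest relative of plakoglobin, at 338 ± 13.2 and 332 ± 12.4 CPM. Of 19 tested genes edgeR called 0 and DESeq2 0, with 0 at an unadjusted edgeR p under 0.05, and the list median was 0.01. The largest of them was Cdh5, the endothelial cadherin, at 27.0 ± 2.44 and 37.1 ± 9.39 CPM (log2 fold change 0.46, SE 0.196; edgeR adjusted p = 0.941). Of 16 tight junction genes edgeR and DESeq2 called 0, with 1 higher at an unadjusted edgeR p under 0.05 and a median of 0.01. That gene was Cldn19, the claudin of Schwann cells, at 322 ± 38.6 and 403 ± 21.5 CPM (edgeR adjusted p = 0.829).

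Genes of the cornified envelope and of desmosome turnover gave no calls. Of 5 tested cornified envelope genes and 12 genes of desmosome regulation and traffic, edgeR and DESeq2 called 0, with 0 at an unadjusted edgeR p under 0.05, and the medians were 0.28 and 0.07. Tgm1, a cross-linking enzyme of the envelope, was at 0.978 ± 0.126 and 0.678 ± 0.199 CPM. Prkca, a kinase that loosens desmosomes, was at 204, 216 and 217 CPM in injury and 275, 270 and 210 CPM in conduit (log2 fold change 0.24, SE 0.120; edgeR adjusted p = 0.99981). Of 8 tested genes of the p53 pathway, of which Perp is a target, edgeR and DESeq2 called 0, with 0 at an unadjusted edgeR p under 0.05 and a median of 0.02.

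**Figure D3:**
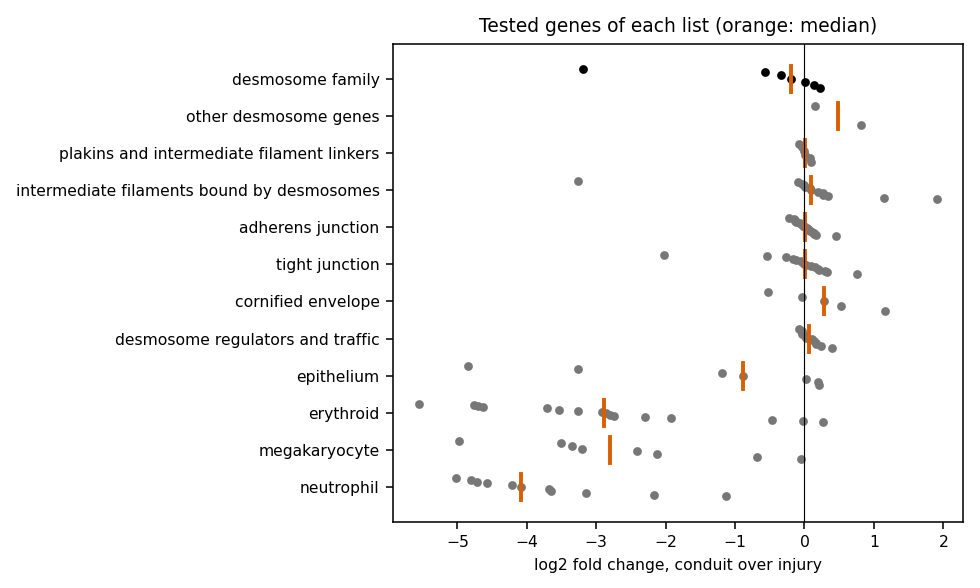
Log2 fold change, conduit over injury, of every tested gene of 12 lists, with the list median in orange. The Dsp point lies at -3.19, apart from the other junction genes and at the level of many erythroid, megakaryocyte and neutrophil genes.

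By the likeness of log2 CPM over the 6 libraries, the 5 genes closest to Dsp among 12854 were Hbb-b2, a beta-globin gene (Pearson r 0.994), Nr1d1, a clock repressor (0.990), Pprc1 (0.987), Zer1 (0.986) and Smg5l1 (0.981). With groups of such different Dsp levels, r mostly records the split by group, and genes with very small changes score as high: Zer1 ran from 65.2 to 65.5 CPM in injury and from 63.1 to 63.7 CPM in conduit. Hbb-b2 was at 6.81, 7.47 and 5.71 CPM in injury and 0.965, 1.05 and 0.678 CPM in conduit, a difference of nearly the size of that in Dsp. Nr1d1 was at 75.1, 73.3 and 59.8 CPM in injury and 23.8, 27.4 and 15.7 CPM in conduit. In deviations from the group means, which remove the split, 69 of the genes compared had r over 0.95 over the same 6 libraries. The Dsp deviations were largest in conduit, with 39, 45 and 21 counts, so r by this measure rests on few Dsp reads. The 5 closest genes were Hmgn3, Cav1, Enox2, Ly6g6e and Borcs7 (r from 0.992 to 1.000). Among them Ly6g6e was also lower in conduit, at 5.77, 4.42 and 5.08 CPM in injury and 2.58, 3.49 and 1.13 CPM in conduit, whereas Cav1, or caveolin-1, was higher, at 129 to 133 CPM in injury and 155 to 230 CPM in conduit.

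Markers of blood and marrow cells moved with Dsp to different degrees. All 3 conduit libraries were below all 3 injury libraries for 14 of 16 tested erythroid genes, whose list median was -2.89 and of which edgeR called 0 and DESeq2 12. An unadjusted edgeR p under 0.05 was found for 14 of them, all lower, against 2.36% of all tested genes. Their summed level was 5457 to 6341 CPM in injury and 1239 to 1942 CPM in conduit. Hba-a2, an alpha-globin gene with near-identical copies that may share its reads, was at 1160, 1044 and 1041 CPM in injury and 229, 118 and 138 CPM in conduit. As with Dsp, the injury libraries were nearly level. That was not so for erythroid precursor genes such as Slc4a1, the anion exchanger of red cells, at 12.3, 114 and 93.6 CPM in injury, nor for markers of other marrow cells.

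Megakaryocyte markers summed to 24.5, 136 and 50.9 CPM in injury samples 1 to 3 and to 12.6 to 22.4 CPM in conduit, with 8 of 8 tested genes lower and a median of -2.81. Neutrophil markers summed to 62.5, 728 and 140 CPM in injury and to 15.5 to 41.2 CPM in conduit, with 11 of 11 lower and a median of -4.08. Dividing cell markers summed to 17.9, 111 and 70.7 CPM in injury and to 15.7 to 23.3 CPM in conduit, with 10 of 10 lower and a median of -1.67. In all 3 lists injury sample 2 was the highest and injury sample 1 the lowest of its group, whereas Dsp was highest in injury sample 1. For dividing cells injury sample 1 lay within the conduit range, while its Dsp, at 8.48 CPM, was far above the conduit maximum of 1.13 CPM. Bone and cartilage markers summed to 148, 345 and 426 CPM in injury and to 145 to 190 CPM in conduit, with a median of -1.52, and B cell markers to 55.0, 87.5 and 62.8 CPM and to 57.5 to 64.3 CPM, with a median of -2.25. In these 5 lists edgeR called 0 genes, while 6 megakaryocyte, 9 neutrophil, 5 dividing cell, 5 bone and 3 B cell genes were lower and 1 bone gene was higher with an unadjusted edgeR p under 0.05. DESeq2 called 5, 3, 2, 2 and 0 of them. Several of these medians rested on injury samples 2 and 3. Against injury sample 1 alone the median was -1.85 for erythroid, -1.17 for megakaryocyte, -0.95 for neutrophil and -0.02 for bone genes, and it turned to 0.23 for dividing cell and 1.11 for B cell genes, while the Dsp fold change was -3.29. Leaving out injury sample 2 by itself gave -2.17 for neutrophil, -0.97 for dividing cell and -1.39 for B cell genes, and leaving out injury sample 3 gave -0.99 for bone genes. The part of red cells or marrow cells in the Dsp level was not tested.

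**Figure D4:**
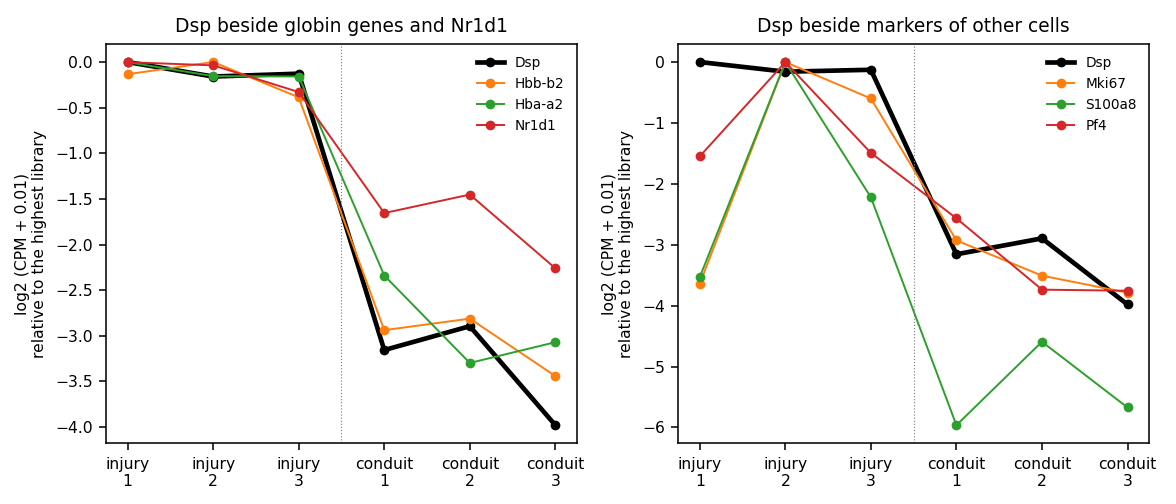
Log2 of CPM + 0.01, relative to each gene's highest library, in the 6 libraries, with Dsp as the thick black line and lines serving only to join the values of a gene. On the left the injury libraries are nearly level for Dsp, Hbb-b2, Hba-a2 and Nr1d1 alike, and on the right Mki67 (dividing cells), S100a8 (neutrophils) and Pf4 (platelets) peak in injury sample 2 while Dsp does not.

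Epithelia and the arachnoid barrier are known for desmosomes, and their marker lists depended on single libraries. Of 7 tested epithelial genes edgeR called 0 and DESeq2 0, with 2 lower at an unadjusted edgeR p under 0.05 and a median of -0.89. Those were Epcam, whose reads were mostly in injury sample 1, and St14, a membrane protease, at 1.53 ± 0.600 CPM in injury and 0.668 ± 0.194 CPM in conduit (SD, n = 3 each; edgeR adjusted p = 0.891), with no overlap between groups. The epithelial median was -0.39 without conduit sample 2, -1.37 without conduit sample 3 and 0.01 within batch 2. The 15 arachnoid and dural barrier genes had a median of 0.06, and 0 had an unadjusted edgeR p under 0.05 or were called by edgeR or DESeq2. Their summed level was 753 to 1018 CPM in injury and 588 to 1574 CPM in conduit, with conduit sample 1 highest. The arachnoid median was -0.80 without that library, -0.75 without batch 2 and 0.78 within batch 2. The 12 endothelial genes had a median of 0.16, with 0 called by either tool and 0 at an unadjusted edgeR p under 0.05. The 8 tested mast cell genes had a median of 1.16, with 1 higher and 1 lower at an unadjusted edgeR p under 0.05 and 0 called by either tool. That median moved to 0.63 when injury sample 1 was left out, to 1.79 when injury sample 2 was, and to 0.59 when conduit sample 1 was.

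Among the resident cells, the 10 sensory neuron genes had a median of -0.01, the 8 satellite glia genes 0.12 and the 8 macrophage genes 0.05, and the 10 myelinating Schwann cell genes were at 0.33. None was called by edgeR (0 genes), while 6 Schwann cell genes and 1 macrophage gene were higher with an unadjusted edgeR p under 0.05, and 5 Schwann cell genes were called by DESeq2. The 8 tested muscle genes had a median of 3.91, carried by conduit sample 2, with a summed level of 8617 CPM there against 17.7 to 525 CPM in the other libraries, and 0 were called by either tool or had an unadjusted edgeR p under 0.05. The 10 central glia genes had a median of -0.29 and the 3 tested pituitary genes -5.71, with 0 and 1 at an unadjusted edgeR p under 0.05 and 0 called by either tool. These medians rested on the libraries that stood apart: the muscle median was -4.53 without conduit sample 2, the pituitary median -0.13 without injury sample 1, and the central glia median 0.01 without injury sample 3 and -1.95 without conduit sample 1. The satellite glia median was -0.05 without conduit sample 1. The macrophage median was -0.44 without that library and 0.91 within batch 2.

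**Figure D5:**
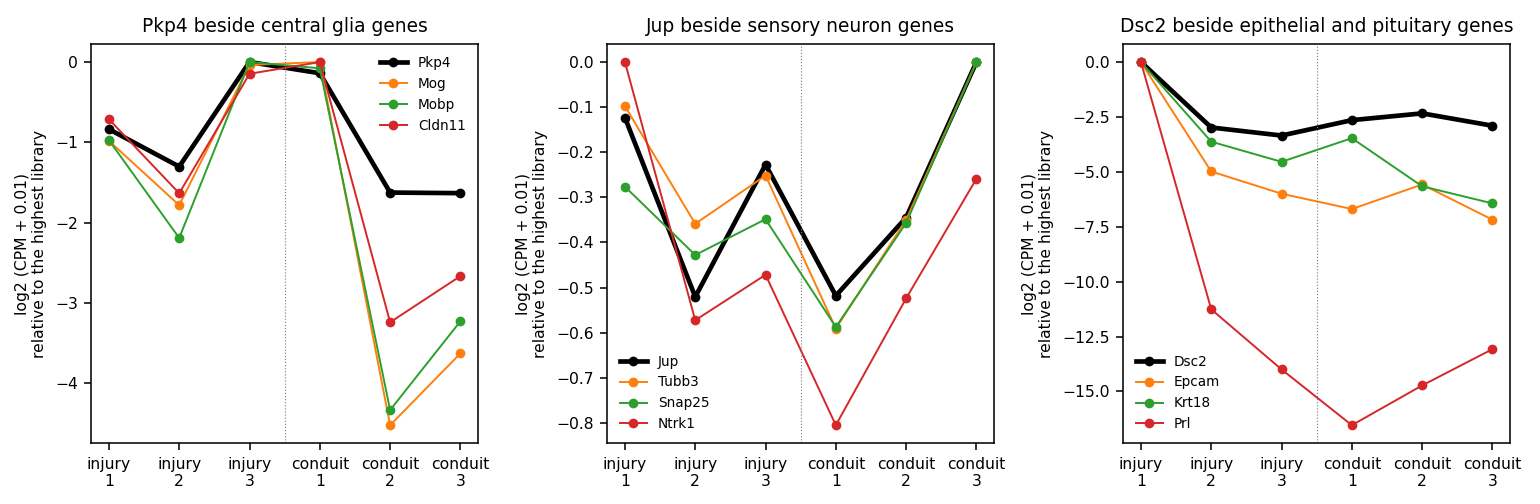
Log2 of CPM + 0.01, relative to each gene's highest library, in the 6 libraries, for Pkp4, Jup and Dsc2 (thick black lines) beside genes of central glia, sensory neurons, and epithelium and pituitary; lines only join the values of a gene. Pkp4 and the glial genes peak in injury 3 and conduit 1, Jup and Tubb3 in conduit 3, and Dsc2, Epcam, Krt18 and Prl in injury 1.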

How the data were processed

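RNA had been extracted with TRIzol, and libraries were made from purified mRNA, per the labels' protocols. HISAT2 and HTSeq, with fastp, DESeq2 and SAMtools, and the build mRatBN7.2 are named in the submitters' processing notes. Their versions, the annotation and whether counting used strand are not given there, so reads of a gene and an antisense partner cannot be told apart. The deposited counts are unscaled whole numbers of reads per gene symbol. The deposited FPKM values are the same counts per gene length and library total: 14394 of 14394 genes checked gave the same length in each library within 0.1%, so they are no second measurement.

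Counts were analysed in R 4.3.3 with edgeR 4.0.16: filterByExpr with a minimum count of 10 (16478 of 29884 genes kept), TMM scaling, and the robust quasi-likelihood F test of conduit against injury with no covariate, p-values adjusted by Benjamini-Hochberg over all genes tested, threshold 0.05. Log2 CPM used a prior count of 2, and values up to 3 counts (0.0710 to 0.0753 CPM) count as at the floor. The common biological coefficient of variation was 0.295. The SE is the fold change divided by the root of F. DESeq2 1.42.0 and limma 3.58.1, on counts with voom and on log2 of FPKM plus 1 or 0.1, were alternatives, beside other scalings, no filter, a replicate block, batch, and libraries left out. With 3 libraries against 3 an exact permutation test gives no p under 0.1. On simulated counts for this comparison with 200 changed genes, edgeR on 16249 genes recovered 51% of 2-fold and 90% of 4-fold changes, with 17 of 158 calls wrong. On the same counts DESeq2 recovered 71% and 92%, with 67 of 230 calls wrong. For limma-voom the shares were 49% and 89%, with 13 of 151 calls wrong. The labels do not say that samples are separate animals, so p-values measure the spread between samples.

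Members, gene lists and tests were chosen with earlier results of these data known. Named were all members, listed partner genes (such as Pkp1, Krt8, Vim, Cdh1 and Plec), up to 3 genes per list with the smallest p, and the 5 genes most like Dsp by each measure, among those averaging 1 or more in log2 CPM and without a clone-type symbol; Gh1, Mobp, Prl, Tubb3, Snap25, Hba-a2, Slc4a1 and other markers given by library were chosen after their values were seen. Of the symbols, 26249 matched RefSeq's GRCr8 table, used for names; there, Jup, Pkp2, Pkp4 and Dsg2 overlap uncharacterised or pseudogene entries, which held at most 19 counts in a library where listed.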

Additional observations from a re-analysis of the deposited data

How the results depend on the processing

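Dsp was picked for its lower counts in conduit and its groups lay far apart, so nothing is read from its sign. The Dsp fold change was negative in all 19 alternatives. It stayed between -3.42 and -2.94 on the count scale, where leaving out 1 library gave the same range, and was -0.76 and -2.33 by limma on log2 of FPKM plus 1 and plus 0.1, where the pseudocount exceeds or nears the level of the gene. Of 114 values of the other 6 tested members, 107 moved by less than the SD between replicates, and the fold change was negative in 19 of 19 alternatives for Ppl, 18 for Pkp4, 17 for Pkp2, 8 for Jup, 3 for Evpl and 1 for Perp. Of 494 list medians, 417 moved by less than that SD.

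The count of genes called over all genes depended on the tool and the libraries. On the simulated counts, 67 of 230 DESeq2 calls were wrong, against 17 of 158 by edgeR. The cause in the deposited counts was not tested. Genes called higher and lower were 0 and 1 by edgeR, 1 and 5 with no filter, 112 and 98 by DESeq2, 2 and 7 by limma on log2 of FPKM plus 1, 0 and 5 on log2 of FPKM plus 0.1, 14 and 9 without injury samples 2 and 3, and 0 and 0 with batch as a term (257 genes at an unadjusted edgeR p under 0.05). Added after seeing the data, leaving out injury sample 1 and conduit sample 2 gave 0 and 13, and leaving out batch 2 gave 16 and 3. Leaving out 1 library gave 0 to 31 higher and 0 to 37 lower: 1 and 37 without injury sample 1, 31 and 4 without injury sample 3, 0 and 6 without conduit sample 1, and 0 and 0 without conduit sample 3 (1215 genes at an unadjusted edgeR p under 0.05).

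By the replicate numbers of the titles, same-numbered libraries correlated at -0.417, 0.0574 and -0.0715 in their deviations from the group means. Injury sample 1 was closest to conduit sample 3 (0.312). With 3 libraries per group these deviations are tied to each other, and several libraries stood apart. The correlations therefore cannot decide whether same-numbered samples were paired. With a replicate block edgeR called 0 higher and 0 lower, with 554 genes at an unadjusted p under 0.05, and the Dsp fold change was -3.25 (SE 0.341). Fold changes of Dsg2 and Dsc2 were not fitted, since 48 and 107 counts over 6 libraries fell under the filter.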
